A study of Mus musculus with 3 samples.

Results

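Stat2, Stat3, Stat4, Stat5a, Stat5b and Stat6 belong to the STAT family, the signal transducers and activators of transcription. They were picked by gene symbol, which gave 6 of the 55536 annotated genes in the gene tables and 6 of the 22028 protein-coding ones. The RNA was from the chromatin fraction of C57BL/6J macrophages differentiated from bone marrow. The cells had received Lipid A, the part of bacterial lipopolysaccharide seen by the receptor TLR4, at 100 ng/ml for 15 min. Ribosomal RNA was removed and total RNA was sequenced in 3 libraries, biological replicates 1, 2 and 3, which make up 1 group. Untreated cells were not analysed here, so each value is a level at this time and not a response. The libraries have separate biosample labels but share a donor label, and the labels name no separate animals, so the error between them may be technical. Age and sex were not recorded in the labels.

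STAT proteins wait in the cytoplasm until a cytokine binds its receptor. Janus kinases on the receptor then phosphorylate them, they pair through their SH2 domains, and the pairs enter the nucleus and bind DNA. Stat2 serves type I and type III interferons, Stat3 the cytokines of the IL-6 and IL-10 families, and Stat4 IL-12. Stat5a and Stat5b serve GM-CSF, the IL-2 family and several hormones, and Stat6 serves IL-4 and IL-13. In macrophages TLR4 signalling induces interferon-beta and IL-10, which act back on the same cells through STAT proteins. RNA in the chromatin fraction is mostly still being transcribed, being spliced or held at the DNA.

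Depth ran from 10974934 to 21376404 expected counts per library, and the libraries were made from unequal amounts of RNA, 1 µg for replicate 1, 500 ng for replicate 3 and 250 ng for replicate 2. All 10 macrophage markers examined, Csf1r, Adgre1 and Cd68 among them, were at 1 TPM (transcript abundance scaled for length and library) or more in all 3 libraries, and their summed TPM was 526 to 938.4. None of 8 T and NK cell, 5 B cell, 7 neutrophil and 5 dendritic cell markers reached that level in all 3 libraries of the gene table. Their summed TPM was 0.63 to 1.82, 0.07 to 0.13, 0.95 to 1.44 and 0.89 to 2.02 in that order. Cd3e, Cd3g, Nkg7, Klrb1c, Ncr1, Cd79b, Pax5, Elane and Mpo were at 0 in every library of that table. In the second quantification, described further on, 1 T and NK cell and 2 dendritic cell markers did reach that level. There Cd3d averaged 16.1 TPM, against 0.00667 in the gene table, Mpo 1.49 and Cd3g 1.29 TPM. In bulk RNA, fewer cells of a type and less RNA per cell cannot be told apart.

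Of the 6 Stat genes, 5 were at 1 TPM or more in all 3 libraries, against 42.4% of all protein-coding genes. Stat2 was the highest at 114.2 ± 23.5 TPM (SD, n = 3), followed by Stat6 at 62.9 ± 12.0 TPM and Stat3 at 38.2 ± 8.97 TPM. Stat5b at 10.02 ± 2.46 TPM and Stat5a at 9.48 ± 1.89 TPM formed a lower pair. Stat4, at 0.527 ± 0.318 TPM, was the exception below 1 TPM. The median protein-coding gene had 0.543 TPM. Stat2 stood at percentile 98.8 of the protein-coding genes by mean TPM, Stat6 at 96.9, Stat3 at 93.6, Stat5b at 78.5, Stat5a at 77.7 and Stat4 at 49.6. Among genes with a mean of at least 0.1 TPM, Stat4 stood at percentile 13.6, Stat5a at 61.8 and Stat5b at 63.2, and Stat2, Stat6 and Stat3 at 97.9, 94.6 and 89.0.

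Neighbours in that order were compared on the log2(TPM + 1) scale, where low genes differ by less than on the TPM scale, by an exact two-sided sign-flip permutation test over the 3 libraries. The smallest p this test can give with 3 libraries is 0.25, so it cannot pass 0.05. Stat2 exceeded Stat6 by 0.85 ± 0.11 (SD, n = 3) in 3 of 3 libraries, and Stat6 exceeded Stat3 by 0.71 ± 0.10 in 3 of 3. The step from Stat3 down to Stat5b was 1.83 ± 0.19, and that from Stat5a down to Stat4 was 2.79 ± 0.25, again in 3 of 3 libraries. For these 4 pairs the TPM values of the genes did not overlap between libraries, with an exact p of 0.25 and 0.3125 after Benjamini-Hochberg adjustment over the 5 pairs. Stat5b and Stat5a differed by 0.06 ± 0.16, less than the spread between libraries. Stat5b was higher in 2 of 3 libraries, the values overlapped, and the exact permutation p was 0.5. In the gene table the order below Stat2 is therefore Stat6, then Stat3, then Stat5b and Stat5a without a separation between them, then Stat4.

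**Figure D1:**
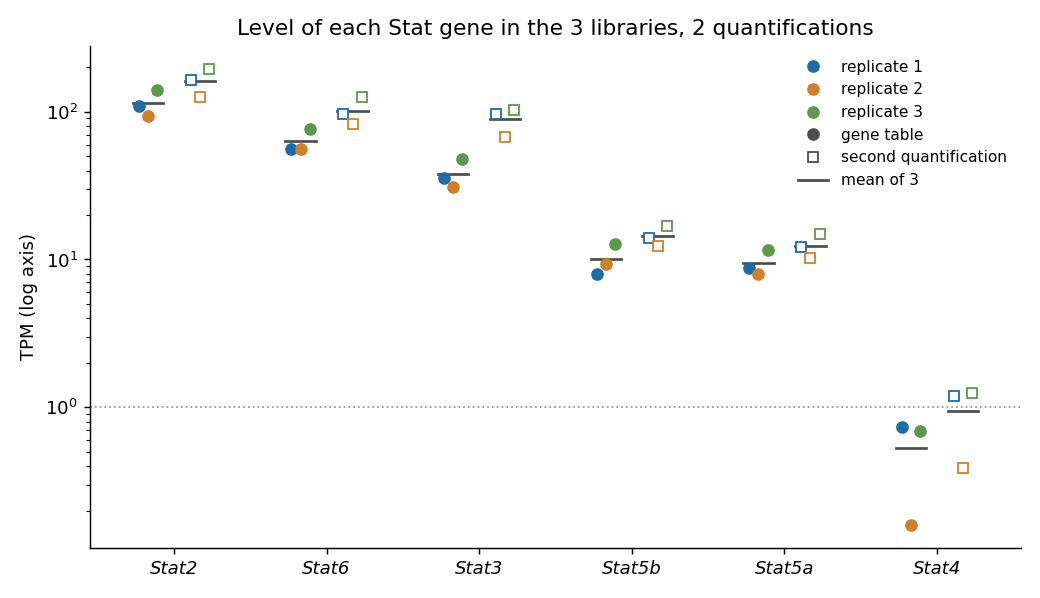
TPM of each Stat gene on a log axis in replicates 1 to 3, from the gene table (filled circles) and from the second quantification (open squares). Bars mark the mean of 3 libraries and the dotted line marks 1 TPM. Stat2 is highest and Stat4 lowest in both, and Stat6 and Stat3 overlap only in the second quantification.

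The 6 genes summed to 235.3 ± 48.2 TPM. Stat2 made up 50.1%, 47.3% and 48.2% of that sum in replicates 1, 2 and 3. The share of Stat6 was 26.8 ± 1.26% (SD, n = 3) and that of Stat3 16.2 ± 0.498%. Stat5b contributed 4.26 ± 0.541%, Stat5a 4.03 ± 0.0299% and Stat4 0.218 ± 0.127%. The shares of Stat2, Stat3, Stat5a and Stat6 thus moved little between libraries, whereas Stat4 ran from 0.0811% to 0.333% and Stat5b from 3.66% to 4.71%. The TPM values of Stat2, Stat3, Stat5a, Stat5b and Stat6 were highest in replicate 3.

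That ranking of the libraries depended on scaling. Protein-coding genes took a smaller part of the TPM in replicate 2, where their median was 0.37 TPM against 0.58 in replicate 1 and 0.68 in replicate 3. Scaling each library to its protein-coding TPM multiplied the values by 0.904, 1.30 and 0.853 in replicates 1, 2 and 3, and TMM scaling by 0.863, 1.43 and 0.808. After protein-coding scaling, Stat2 was at 99.2, 120.9 and 119.1 TPM, so that replicate 1 was lowest. The same held for Stat3, Stat5a, Stat5b and Stat6, whereas for Stat4 replicate 1 was the highest before and after scaling, with 0.66, 0.207 and 0.589 after it. On this scale the SD of log2(TPM + 1) over libraries was 0.158 for Stat2, 0.191 for Stat3, 0.184 for Stat5a, 0.254 for Stat6 and 0.350 for Stat5b. Protein-coding genes within 0.5 log2 units of Stat2 had a median SD of 0.222, and those near Stat5b one of 0.255, so on this scale Stat2 varied less and Stat5b more than the median gene of like level. The SD of Stat2 itself depended on the scaling, at 0.290 with TPM as deposited and 0.247 with TMM scaling. That of Stat5b was 0.313 with TPM as deposited. The comparison with genes of like level is given for protein-coding scaling only. Without replicate 1 the spreads of these genes were smaller, at 0.0153 for Stat2, 0.0275 for Stat3, 0.0445 for Stat5a, 0.0966 for Stat6 and 0.0932 for Stat5b. Stat4 went the other way, with an SD of 0.249 over all libraries and 0.280 without replicate 1. Protein-coding genes near Stat4 in level had a median SD of 0.133.

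Stat2, the interferon-specific member, lies at chr10:128270559-128292849 on the plus strand of mm10 (GENCODE M21, gene ENSMUSG00000040033.16). Its level was 109.7, 93.3 and 139.5 TPM in replicates 1, 2 and 3, from 2812, 5939 and 4175 expected counts. Every library was above every library of every other Stat gene. By mean TPM, 266 protein-coding genes were above it. Interferon-stimulated genes often carry an interferon-stimulated response element, whose core is a repeat of GAAA. The RefSeq promoter windows of the family (GRCm38.p6, 250 bases before to 50 after each start, 9 windows for the 6 genes) were searched on both strands for 2 copies of GAAA with any 2 bases between them. Stat2 held a match, printed here in capitals as it reads on the plus strand (GAAA repeats lie on the minus strand), in the 250 bases before its start at chr10:128270248-128270497.
Stat2 upstream: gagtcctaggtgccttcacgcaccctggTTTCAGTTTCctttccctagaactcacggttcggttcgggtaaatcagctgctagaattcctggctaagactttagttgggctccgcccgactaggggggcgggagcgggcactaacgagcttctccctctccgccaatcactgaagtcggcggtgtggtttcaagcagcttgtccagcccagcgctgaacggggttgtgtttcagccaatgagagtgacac
The match begins 222 bases before the start. Such a match was present in 1126 of 32817 windows of all genes (3.43%) and in 2 of the 9 Stat windows. The gamma-activated site motif TTCNNNGAA, which reads the same on both strands and can overlap these repeats in part, was present in 2722 windows (8.29%) and in none of the 9. These are matches of letters and say nothing on binding.

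Stat2 has 8 annotated transcript models, of which 2 are protein-coding and 6 keep an intron. The tables cannot tell a retained intron from RNA not yet spliced. The full-length model Stat2-201 had 40.21, 37.37 and 52.52 TPM, and 2291, 4913 and 3415 expected counts. Protein-coding models held 38.1 ± 1.75% (SD, n = 3) of the gene's TPM but 82.0 ± 0.656% of its expected counts, since the retained-intron models are short and TPM divides by length. The retained-intron share of TPM was thus 61.9%. Among 4954 protein-coding genes with such a model and a mean of at least 5 TPM, the median share was 48.5%, and the Stat2 share lay at percentile 72.7. Those genes had a median of 2 such models, fewer than the 6 of Stat2 and the 9 of Stat3, and the part of this number in the share was not tested.

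**Figure D2:**
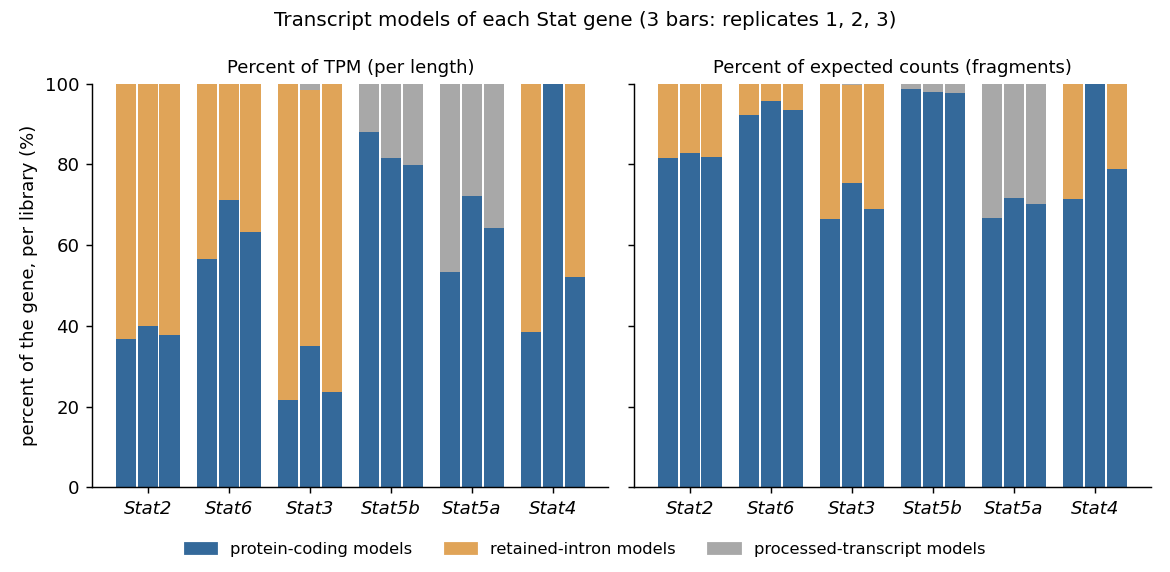
Percent of each Stat gene's TPM (left) and expected counts (right) in protein-coding, retained-intron and processed-transcript models, with a bar for each of replicates 1, 2 and 3. Stat2 and Stat3 have most of their TPM in retained-intron models in every library, and every gene has most of its counts in protein-coding models.

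The 6 retained-intron models of Stat2 tile the gene from its 5′ to its 3′ end. Stat2-206, which covers the first 6851 bases, had 23.17, 17.11 and 27.21 TPM and was the highest of the 6 in 3 of 3 libraries. In the middle of the gene Stat2-207 had 16.25, 7.56 and 16.89 TPM, and Stat2-204 had 7.85, 9.56 and 15.44 TPM. Toward the 3′ end, Stat2-208 averaged 8.84 TPM and Stat2-205 4.34 TPM. In the first transcript table the model at the 5′ end was thus above the others. In the second quantification of the same libraries the short model Stat2-203 was highest instead, at a mean of 38.1 TPM, with Stat2-206 next at 29.6 TPM.

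**Figure D3:**
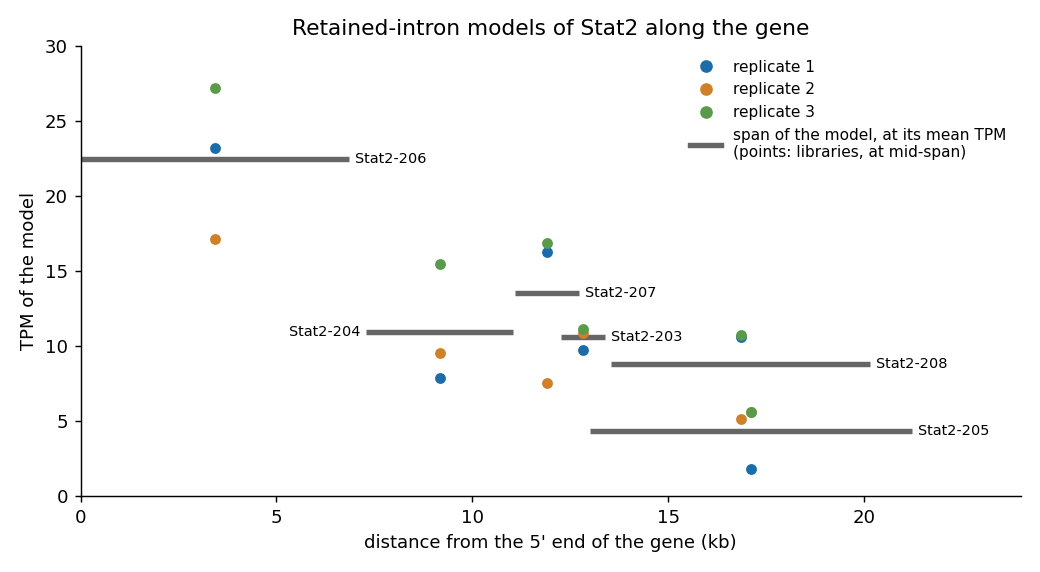
TPM of the 6 retained-intron models of Stat2 against distance from the 5′ end of the gene in kb. Each grey line spans a model at its mean TPM and the points are replicates 1 to 3. Stat2-206 at the 5′ end is highest in each library, and Stat2-205 has the lowest mean.

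The other protein-coding model, Stat2-202, differs from Stat2-201 by 3 bases at the start of an exon (chr10:128283230-128283232, plus strand), which changes 922 codons to 923. The bases are shown in capitals with their neighbours, since they decide which model a fragment is given to.
Stat2-202: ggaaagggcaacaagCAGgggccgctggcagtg
Stat2-201: ggaaagggcaacaaggggccgctggcagtg
Stat2-202 had 0 expected counts in all 3 libraries while Stat2-201 had 2291 to 4913, and it was near 0 in the second quantification too. A count of 0 allows up to 3 counts per library, but only fragments that cover these 3 bases tell the models apart. The number of such fragments was not available here. The longer exon was thus not detected at this depth, and no upper bound on its share can be given.

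Stat6, the transducer of IL-4 and IL-13, lies on the same chromosome at chr10:127642986-127660957 (plus strand, ENSMUSG00000002147.18). It ends 609601 bases before Stat2 starts. Its level was 56.38, 55.61 and 76.72 TPM, from 1681, 4625 and 2844 expected counts. Replicate 3 was high, and replicates 1 and 2 were nearly equal. The last 40 bases overlap Nab2 on the other strand, which had 7.81, 8.11 and 8.91 TPM, and whether strand was used in the counting is not given in the sources used here. Stat6-201 carried 31.90, 39.58 and 48.02 TPM. Protein-coding models held 63.6 ± 7.31% of the TPM and 93.8 ± 1.83% of the counts. At 36.4% the retained-intron share lay at percentile 30.7 of the 4954 genes, on the other side of their median from Stat2. The retained-intron models Stat6-204 and Stat6-205 averaged 9.42 and 7.66 TPM.

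Stat3, which relays IL-6 and IL-10, lies at chr11:100885098-100939540 on the minus strand (ENSMUSG00000004040.16). Its level was 35.48, 30.86 and 48.18 TPM, from 749, 1737 and 1212 expected counts. It is the member with the most models, 14, of which 4 are protein-coding and 9 keep an intron. The TPM was spread thinly over them. The highest were the retained-intron models Stat3-212 with 4.28, 2.80 and 8.10 TPM, Stat3-208 with 4.76, 3.80 and 6.50 TPM, and Stat3-211 with 3.81, 4.11 and 4.30 TPM. Retained-intron models held 72.7 ± 8.17% of the TPM, at percentile 86.9 of the 4954 genes, and 29.6 ± 4.76% of the counts. In replicate 2 the share of TPM was 63.4%, below the 78.4% and 76.3% of replicates 1 and 3.

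Stat3 makes a full-length protein and a shorter form, Stat3-beta, that lacks the C-terminal transactivation domain. The forms differ by 50 bases at the start of an exon (chr11:100889541-100889590, minus strand). With these bases, in capitals, the model Stat3-203 encodes 770 codons, and without them Stat3-202 encodes 722.
Stat3-203: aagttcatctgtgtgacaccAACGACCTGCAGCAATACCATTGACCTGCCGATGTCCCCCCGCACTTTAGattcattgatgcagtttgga
Stat3-202: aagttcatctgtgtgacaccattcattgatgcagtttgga
Stat3-202 was given 309.0, 522.9 and 441.4 expected counts. The 3 other protein-coding models, which hold the bases, were together given 189.4, 785.5 and 393.1. Of these, Stat3-207 encodes 744 codons and was given 0, 88.73 and 0. The short-end model thus took 62.0%, 40.0% and 52.9% of these counts, 51.6 ± 11.1% (SD, n = 3), and 46.4 ± 10.7% in the second quantification. Replicate 2 was lowest in both. Stat3-202 also has the longest last exon, 3663 bases against 1951 in Stat3-203, and per length its share was 39.9 ± 12.5% of TPM. Fragments from that exon count toward it whatever their splicing, and their part in the share was not tested.

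A further choice, 3 bases at chr11:100893074-100893076 (minus strand), is among the differences between Stat3-201 and the other protein-coding models. The bases are again in capitals.
Stat3-203: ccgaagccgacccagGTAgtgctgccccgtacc
Stat3-201: ccgaagccgacccaggtgctgccccgtacc
Stat3-201, without them, took 10.7%, 27.6% and 9.09% of the protein-coding counts, 15.8 ± 10.3%. Without replicate 2 the mean was 9.89%. In the second quantification the values were 10.4%, 29.2% and 9.07%, so that replicate 2 stood above the other libraries in both tables. Stat3-201 also has a shorter last exon than Stat3-203, 525 against 1951 bases, and a shorter first exon, 125 against 285 bases. The share is that of the whole model, and the part of these ends in it was not tested.

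Stat5a and Stat5b are near copies that answer to GM-CSF and IL-2 family cytokines. Stat5b (ENSMUSG00000020919.11) lies at chr11:100780731-100850724 on the minus strand, and Stat5a (ENSMUSG00000004043.14) at chr11:100859351-100885169 on the plus strand, 8626 bases away. Stat3 follows at once: its last 72 bases overlap those of Stat5a, end to end, so that the 3 genes lie within 158810 bases. Stat5b had 8.01, 9.28 and 12.76 TPM from 485.6, 1204 and 806.5 expected counts. Stat5a had 8.81, 8.02 and 11.61 TPM from 308.4, 779.8 and 501.5 expected counts. Replicate 3 was highest for both, and the deposited bounds of the level overlapped in each library, for example 6.60 to 8.63 for Stat5b and 7.43 to 10.9 for Stat5a in replicate 1.

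The pair shares long stretches of sequence. Coding positions are counted from 1 at the A of the start codon, in Stat5a-202 and Stat5b-202. Positions 441 to 894 (454 bases) are identical but for a single substitution, C570A, where the first base is that of Stat5a. It is in capitals in positions 541 to 599.
Stat5a: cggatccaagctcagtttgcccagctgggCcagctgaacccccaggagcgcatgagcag
Stat5b: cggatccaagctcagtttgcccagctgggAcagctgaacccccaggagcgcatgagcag
The longest exact stretch was 324 bases, and exact stretches of at least 31 bases made up 51.5% of the 2379 coding bases of Stat5a. Over all models, 836 sequences of 31 bases occurred in both genes, 15.1% of those of Stat5b and 11.5% of those of Stat5a. Stat2 and Stat3 shared 9, and no other pair of the 6 genes shared any. The split of reads between Stat5a and Stat5b is uncertain for these stretches, since the way the deposited tables assigned them is not given in the sources used here.

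Stat5b has protein-coding models from 2 starts that encode the same 786 codons and differ in their first exon. The outer one, of Stat5b-201, is at chr11:100850399-100850724 and the inner one, of Stat5b-202, at chr11:100822052-100822528. Stat5b-202 was the higher model, with 6.06, 4.58 and 7.29 TPM against 1.00, 2.99 and 2.91 TPM for Stat5b-201. The outer start took 13.7%, 38.8% and 27.9% of the counts of the 2 models, 26.8 ± 12.6% (SD, n = 3). In the second quantification it took 4.81%, 9.32% and 12.7%, 8.95 ± 3.97%. Of the counts of these 2 models, Stat5b-202 held the larger part in 3 of 3 libraries of both tables. The processed transcript Stat5b-203 begins within the first exon of Stat5b-201, 186 bases from the 5′ end of the gene, and was left out. It had 0.95, 1.71 and 2.57 TPM, and a mean of 4.42 TPM in the second quantification. The shares are thus of 2 models and do not measure all use of each start. The sequences before the starts are unlike, as the outer one (chr11:100850725-100850831, minus strand, outside the first exon of Stat5b-201) and the inner one (chr11:100822571-100822820, minus strand) show.
Stat5b outer: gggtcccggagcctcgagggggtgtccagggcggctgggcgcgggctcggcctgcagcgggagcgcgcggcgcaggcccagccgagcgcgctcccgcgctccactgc
Stat5b inner: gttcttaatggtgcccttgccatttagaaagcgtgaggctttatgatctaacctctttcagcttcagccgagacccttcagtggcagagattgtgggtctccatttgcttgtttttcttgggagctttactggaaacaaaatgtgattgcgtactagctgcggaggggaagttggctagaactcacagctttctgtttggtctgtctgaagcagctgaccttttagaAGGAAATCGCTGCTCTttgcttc
The RefSeq window of the outer start had a GC content of 82.7%, at percentile 99.6 of all windows, and that of the inner start 47.3%, at percentile 29.7. The capitals mark the longest stretch, 16 bases, that the inner window shared with the Stat5a window of the start used by Stat5a-203. It begins 23 bases before the Stat5b start and 32 before the Stat5a start, and no other window of the 32817 held it.

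Stat5a has 7 models, none with a retained intron by its annotation. Stat5a-203 had 3.59, 2.60 and 1.66 TPM and Stat5a-202 had 0.80, 1.90 and 4.72 TPM, so that they changed places between replicates 1 and 3. Stat5a-203 lacks an exon of 52 bases (chr11:100881738-100881789, plus strand), in capitals here, and encodes 797 codons against 793.
Stat5a-202: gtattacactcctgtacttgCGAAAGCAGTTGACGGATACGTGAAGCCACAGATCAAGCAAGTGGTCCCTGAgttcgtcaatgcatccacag
Stat5a-203: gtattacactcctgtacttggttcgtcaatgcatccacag
Of the counts of Stat5a-203, Stat5a-202 and Stat5a-201, the share of Stat5a-203 was 81.2%, 50.3% and 25.3%, 52.2 ± 28.0% (SD, n = 3). Each library was far from the others. The share was 66.1%, 46.8% and 53.8% in the second quantification. Stat5a-203 also starts further in, at 100860484 against 100859656, and lacks the 80-base first exon of Stat5a-202. The share is thus that of a whole model, and the parts of the start and of the 52-base exon in it were not tested. Stat5a-207, a processed transcript with 3958 bases, held 1.57, 1.80 and 2.26 TPM and was the steadiest of the 3 highest models.

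**Figure D4:**
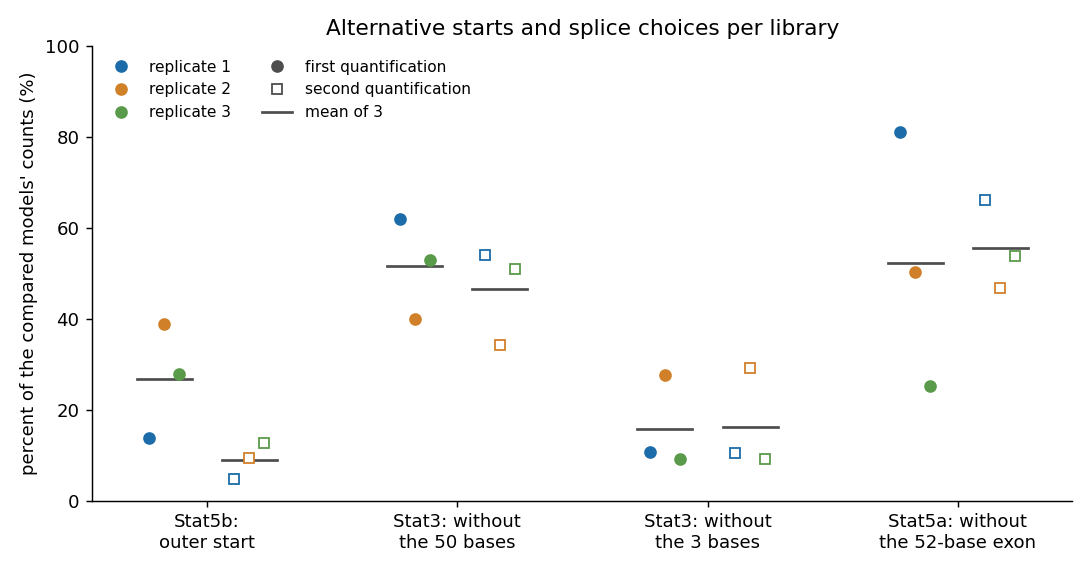
Percent of the counts of the compared models taken by the outer start of Stat5b, by Stat3 models without the 50 or the 3 bases, and by the Stat5a model without the 52-base exon. Filled circles are the first quantification, open squares the second, and bars the mean of 3 libraries. The Stat5a share runs from 25.3% to 81.2% in the first quantification.

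Stat4, the transducer of IL-12, lies at chr1:51987148-52107189 (plus strand, ENSMUSG00000062939.11) and is the longest of the 6 genes at 120042 bases. Its level was 0.73, 0.16 and 0.69 TPM, from only 14, 13.9 and 19 expected counts. Replicate 2 was low in TPM, and its counts were no higher than those of replicate 1 although it was sequenced deeper. Its total was 21376404 expected counts, against 10974934 in replicate 1. The effective length that divides the counts was 2741 bases in replicate 2, against 1416 and 1749 in replicates 1 and 3. All counts of replicate 2 were given to the long model Stat4-201. The parts of depth and effective length in the low TPM of replicate 2 were not tested. The floor of 3 counts, which covers counting error only, corresponds to 0.156, 0.0345 and 0.109 TPM, so Stat4 was above it in each library. The deposited bounds of a separate estimate of the level were 0.429 to 1.59, 0.148 to 0.616 and 0.507 to 1.56 TPM.

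The few Stat4 counts were given to Stat4-201 (6.64, 13.9 and 9.91) and Stat4-202 (3.38, 0 and 5.09), which start at different exons, and to the retained-intron models Stat4-203 (2.99, 0 and 4) and Stat4-204 (1, 0 and 0). Gm28177, which overlaps Stat4 on the same strand, had at most 1.81 counts, and Gm3940 on the other strand at most 2. IL-12 receptor chains were low as well, Il12rb2 at 1.58, 1.36 and 2.00 TPM and Il12rb1 at 0.57, 0.42 and 0.90 TPM. Stat4 is known from T and NK cells and dendritic cells. In the gene table the summed T and NK cell markers were 0.63, 0.68 and 1.82 TPM and the dendritic cell markers 2.02, 0.89 and 1.86 TPM in replicates 1, 2 and 3, and their part in the level of Stat4 was not tested. The window before the start of Stat4-201 held the other match to the GAAA repeat in the family, on the plus strand 97 bases before the start (chr1:52008118-52008177, match in capitals).
Stat4 upstream: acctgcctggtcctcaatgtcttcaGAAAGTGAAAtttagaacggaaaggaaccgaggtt
The highest and the lowest member of the family both hold it, Stat2 and Stat4.

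The genes were quantified again by the authors with a transcript-level method, called the second quantification here, and every member was higher there in 3 of 3 libraries. The ratio of the second TPM to that of the gene table was 2.35 ± 0.319 (SD, n = 3) for Stat3, 1.95 ± 0.409 for Stat4 and 1.61 ± 0.119 for Stat6. It was 1.47 ± 0.241 for Stat5b, 1.41 ± 0.0662 for Stat2 and 1.31 ± 0.0615 for Stat5a. The median of 9339 protein-coding genes was 1.58. When both tables were scaled to protein-coding genes the log2 ratio stayed positive for Stat3 and Stat4 but was -0.26 for Stat2, -0.37 for Stat5a, -0.21 for Stat5b and -0.07 for Stat6. In an exact two-sided sign-flip permutation test each of the 6 unscaled ratios had p = 0.25, also after adjustment over the 6 genes. In this table too 5 of 6 members were at 1 TPM or more in all libraries, against 53.1% of protein-coding genes.

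For Stat2 and Stat3 the full-length models differed little between the tables, and the difference lay in short ones. Stat2-201 averaged 43.4 TPM in the first and 42.9 TPM in the second, and Stat3-203 averaged 3.18 and 3.46 TPM. Stat6-201 differed more, at 39.8 and 47.4 TPM, and so did Stat5b-202, at 5.98 and 9.06 TPM. For Stat2, the 459-base model Stat2-203 went from 10.6 to 38.1 TPM and carried 58.2% of the gene's difference. For Stat3, the 651-base processed transcript Stat3-214 went from 0.163 to 19.7 TPM, 38.4% of the difference, with 0, 6.42 and 0 expected counts against 146.2, 324.1 and 213.3 estimated counts. The 349-base Stat3-204 carried another 24.4%. With these, Stat3 reached 89.2 TPM in the second table, and its values of 96.5, 67.9 and 103.1 TPM overlapped those of Stat6, 96.9, 82.5 and 125.7 TPM. Stat6 was still higher in 3 of 3 libraries, by 0.19 ± 0.16 on the log2 scale. Stat5b exceeded Stat5a there in 3 of 3 libraries, by 0.21 ± 0.04, though the values of this pair still overlapped between libraries. The separation of Stat6 from Stat3 thus held for the gene table, while that of Stat2 from the rest held in both.

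The receptors and kinases that feed the Stat genes were largely present. Of 22 cytokine receptor chains, 18 were at 1 TPM or more in all libraries, against 42.4% of all protein-coding genes. The median chain had 31.9 ± 8.61 TPM (SD, n = 3). The highest were Csf1r, the receptor for M-CSF on which these cells depend, at 179.8, 115.9 and 181.6 TPM, the shared beta chain of the GM-CSF receptor Csf2rb at 93.4 ± 38.0 TPM, and its alpha chain Csf2ra at 85.5 ± 39.7 TPM. Il13ra1 at 0.613 TPM and Osmr, the oncostatin M receptor, at 0.09 TPM were lowest. Levels and ranks of listed genes are from the gene table unless the second quantification is named. In the second quantification Csf2rb averaged 370.6 TPM, above Csf1r at 303.8 TPM. Il6st and Il10rb, at 104.8 and 102.7 TPM, were above Csf2ra at 101.5 TPM there. All 4 Janus kinases passed the threshold. Tyk2 averaged 36.0 TPM, Jak1 29.8, Jak3 13.6 and Jak2 8 TPM, so that Tyk2 and Jak1, the kinases of the interferon receptor that acts on Stat2, were the higher pair. Jak1 was above Tyk2 in the second quantification, at 77.7 against 46.7 TPM. All 5 nuclear partners passed too: the coactivators Ep300 at 70.8, Crebbp at 31 and Ncoa1 at 24.7 TPM, Irf9, which binds Stat2, at 21.01 TPM, and Nmi at 5.56 TPM.

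Of 17 inhibitors of the pathway, 14 were at 1 TPM or more in all libraries, against 42.4% of all protein-coding genes. The median inhibitor had 10.2 ± 3.30 TPM. The phosphatases Ptpn1 and Ptpn6 averaged 38.1 and 29.4 TPM, and the SUMO ligase Pias1 24.8 TPM. The suppressors of cytokine signalling Socs2 at 0.547 and Socs1 at 0.360 TPM were lowest. Socs3 was at 21.5, 1.53 and 8.38 TPM in replicates 1, 2 and 3, which is a wide range relative to its mean of 10.5 TPM. It was chosen after its values were seen.

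The targets of each member were counted the same way, beside the 42.4% of protein-coding genes that pass. All 11 interferon-stimulated targets of Stat2 passed the threshold, with Oas2 at 90.2 ± 30.5, Mx1 at 83.8 ± 25.2 and Rsad2 at 51.2 ± 21.9 TPM highest, and Ifit1 at 4.88 and Isg15 at 3.29 TPM lowest. All 10 targets of Stat3 passed, led by Fos at 287.1, Mcl1 at 231.4 and Pim1 at 124.1 TPM, with Bcl6 at 8.48 and Myc at 2.67 TPM lowest. These genes also respond to other pathways, so their levels do not report on Stat3. Without untreated cells, the levels of the Stat2 targets do not report on Stat2 either. Some genes stand in several lists, Pim1, Socs2 and Il4ra among them, so the counts of the lists are not independent. Of 8 Stat5 targets 5 passed: Pim1, Bcl2l1 at 32.1 and Osm at 27.4 TPM were highest, and Socs2 and Id1, at 0.243 TPM, lowest.

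Of 10 targets of Stat6, known from macrophages treated with IL-4, 3 passed, a share below but near that of all protein-coding genes. In the second quantification 6 passed, beside 53.1% of protein-coding genes. Mrc1, the mannose receptor, was at 106.5 ± 18.6 TPM, Il4ra at 35.6 ± 8.30 TPM and Pparg at 19.8 ± 4.999 TPM. Ccl24 averaged 0.06 TPM and Retnla was at 0 in every library of the gene table, against means of 6.38 and 0.0578 TPM in the second. Of 5 targets of Stat4 only Furin passed, at 19.0 ± 5.33 TPM, but 3 passed in the second quantification. Il18rap averaged 0.557 and Il18r1 0.01 TPM in the gene table, against 8.18 and 4.91 TPM in the second, and Ifng and Tbx21 were at 0 in every library of both tables. The list medians were 19.8 TPM for Stat2 targets, 25.8 for Stat3, 3.22 for Stat5, 0.652 for Stat6 and 0.01 for Stat4, beside 0.543 for all protein-coding genes.

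**Figure D5:**
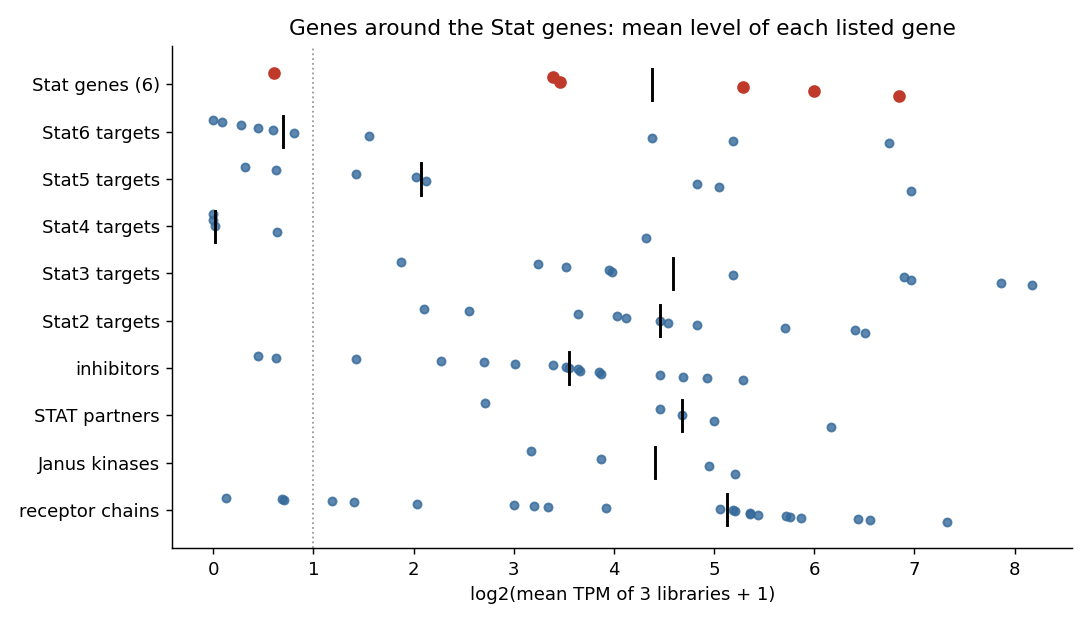
Mean level of each gene in the pathway lists and of the 6 Stat genes, as log2(mean TPM + 1) over 3 libraries, with the median of each list as a black bar and 1 TPM as the dotted line. All Janus kinases, partners, Stat2 targets and Stat3 targets lie to the right of the line, and most Stat4 and Stat6 targets lie to the left.

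Genes with the pattern most like each Stat gene were found by Euclidean distance of log2(TPM + 1) over the 3 libraries, which weighs level as well as variation. They included Mtss1 for Stat2 (distance 0.0883), Brf1 and Colgalt1 for Stat6, Trim14 and Becn1 for Stat3, Mfhas1 and 6430548M08Rik for Stat5b, Mov10 and Fbxl2 for Stat5a, and Gna14 and Fbxo36 for Stat4. With 3 libraries such likeness is weak: from 84 protein-coding genes for Stat2 to 853 for Stat4 lay within a distance of 0.5.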

How the data were processed

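For each of the 3 libraries 3 deposited tables were used. The authors' gene table gives expected counts, which need not be whole, TPM, and lower and upper bounds of TPM, treated as a signal, per the file headers. In the authors' transcript table there is also the percent of a gene taken by each isoform, per the file headers. A further deposited table gives estimated counts and TPM of a second quantification. The build was mm10 with GENCODE M21, per the labels and deposited text; program names, their versions and the use of strand were not given in the sources used here. TPM was used as deposited; the second table was summed per gene. Expected counts were rounded for TMM factors (edgeR 4.0.16) and size factors (DESeq2 1.42.0), which served as alternatives only. Tests were exact sign-flip permutations with a pseudocount of 1. Steps ran in R 4.3.3 and Python 3.11.15 and were tested on simulated data. Promoters came from RefSeq GRCm38.p6 and transcript sequences from GENCODE M21, and all 6 genes matched in both.

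The members and lists were chosen with earlier results of these data known. Named were all 6 Stat genes, their 3 highest transcripts, the 3 highest and 2 lowest genes of each list (all of lists up to 5), the 2 most similar genes (1 is not reported here), and overlapping genes; other transcripts and Il12rb1, Il12rb2 and Socs3 were named after their values were seen. Mx2 and Trac had no protein-coding match and were not used. Alternatives were another scaling, pseudocount, threshold or quantification, and leaving out each library.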

Additional observations from a re-analysis of the deposited data

How the results depend on the processing

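No paired analysis was possible because the 3 libraries form 1 group, so there is no other group to pair them with; differences between genes or tables were taken within each library. The mean difference between neighbouring genes kept its direction in every alternative run: without each library, with a pseudocount of 0.1 and in the second quantification. For Stat5b minus Stat5a, a pair without a separation in the gene table, it was only 0.001593 without replicate 2. In replicate 1 alone this difference was -0.1227. In the second quantification the mean level moved by more than 1 SD to 161.5 TPM for Stat2, 89.17 for Stat3, 0.9408 for Stat4, 12.38 for Stat5a, 14.41 for Stat5b and 101.7 for Stat6, and the protein-coding share of TPM to 26.81% for Stat2, 11.58% for Stat3 and 69.43% for Stat5b. By expected counts that share was 81.99%, 70.24% and 98.01% for these 3 genes and 93.79% for Stat6. Targets at 1 TPM or more in the second quantification numbered 3 for Stat4 and 6 for Stat6. With both tables scaled to protein-coding genes the log2 ratio between them reversed to -0.2551 for Stat2, -0.3667 for Stat5a, -0.2125 for Stat5b and -0.06545 for Stat6. The cause of these shifts was not tested. Of 239 alternative values, 202 were rated the same, 33 moved and 4 reversed. Differences between genes and ratios between tables were rated by direction alone, so their size could change. Stat6 minus Stat3, for instance, was 0.7143 in the gene table and 0.1883 in the second quantification. Depth limits Stat4, with at most 19 expected counts a library.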
